A study of Danio rerio with 24 samples.

Results

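The transcripts described here were lower in the jaws of zebrafish larvae 4 h and 12 h after the start of an exposure to the dioxin TCDD, and had differed little from vehicle at 1 h and 2 h. They were chosen from the measured values themselves. For each probe set, the mean log2 intensity of the 3 vehicle arrays of a time was subtracted from that of the 3 TCDD arrays. A probe set was a member if this difference was smaller than 0.2 in size at 1 h and at 2 h and was -0.2 or lower at 4 h and at 12 h. Members were ranked by the smaller of the late decreases, and up to 80 were to be kept. The rule was met by 72 of the 8781 eligible probe sets with a mean log2 level of at least 4, or 0.820%. The array holds 15502 probe sets that are not array controls, of which the rule set 7 aside. The remaining ones were under that level. Because the differences at all 4 times chose the members, these differences are given as a description and without a test.

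Larvae of the AB strain were kept for 1 h, from 96 h post fertilization (hpf), in water with 1 ng/ml of TCDD or with 0.1% DMSO as vehicle, and were then rinsed. Jaws were taken at 97, 98, 100 and 108 hpf, which are the times 1, 2, 4 and 12 h used below. A jaw here is the head in front of the pectoral fin without eyes and brain, so it holds cartilage, muscle, skin and other tissues. RNA of 10 jaws was pooled for each of the 24 Affymetrix arrays, and 3 independent time course experiments gave 3 arrays for each of the 8 combinations of treatment and time. All groups share the strain and the short exposure, and the vehicle groups received DMSO only.

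TCDD binds the aryl hydrocarbon receptor, a transcription factor that switches on genes such as those of the CYP1 family. In fish larvae, dioxin exposure is known for its effects on heart and jaw growth. Proliferating cells copy their DNA with a conserved set of proteins: the MCM helicase and GINS open the double helix, the primase and DNA polymerase alpha lay down a primer, and PCNA, loaded by the RFC complex, clamps the polymerase to DNA. Many of these genes are transcribed together as cells enter S phase.

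As a check of the exposure, cyp1c1, a CYP1 family gene on this array, was higher with TCDD at every time, by 2.05 on the log2 scale at 1 h and 5.13 at 12 h (limma, adjusted p = 0.00427 and 1.50e-09). A cartilage marker list had 20 probe sets with a mean log2 level of at least 4, out of 28 on the array. The mean of these 20 lay between 8.01 and 9.99 on the log2 scale over the 24 arrays. These cartilage transcripts were thus on average well above that minimum in every sample, and the lower ones were left out of this mean. The arrays' median intensities ranged from 21.9 to 23.8 at 1 h, from 33.2 to 34.7 at 2 h, from 25.7 to 27.8 at 4 h, and from 13.8 to 15.0 at 12 h. Each time thus has its own scale, and levels were compared only within a time. The small number of arrays limits the precision of every value. On one TCDD array of 12 h, replicate 3, the dap control RNA gave a log2 difference between its 5′ and 3′ probe sets of -0.39, against -3.48 to -2.80 on the other 5 arrays of that time, and TCDD replicate 2 of 1 h stood apart at -3.10 against -1.44 to -0.26 on the other arrays of 1, 2 and 4 h.

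Most members were only slightly lower. Their median difference was -0.28 at 4 h, a 1.21-fold lower level, and -0.33 at 12 h, a 1.26-fold lower level. Over all 8781 probe sets the medians were 0.00 and -0.01. At 1 h and 2 h the members' medians were 0.00 and -0.04. Single members ranged from -0.91 to -0.20 at 4 h and from -1.51 to -0.21 at 12 h. A decrease of at least 0.5 was seen for 10 members at 4 h and for 22 at 12 h, and 1 member, anxa2a, was lower by more than 1 at 12 h. For 49 members the smaller of the late decreases lay between 0.2 and 0.3. The difference was larger at 12 h for 49 members and larger at 4 h for the other 23. For 12 members the 12 h decrease was at least 2 times that at 4 h, and for 3 the reverse held.

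**Figure D1:**
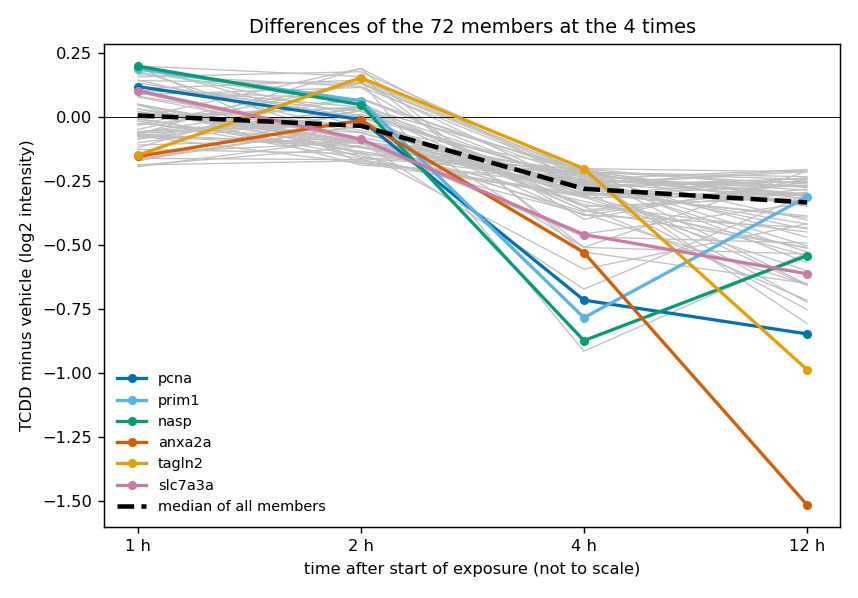
TCDD minus vehicle in log2 intensity (vertical axis) at 1, 2, 4 and 12 h (horizontal axis, not to scale) for the 72 members, 1 grey line each, with 6 named genes in colour and the median dashed. All lines lie within 0.2 of zero at 1 h and 2 h and at -0.2 or lower at 4 h and 12 h because the rule asked for this. anxa2a reaches -1.51 at 12 h, and most lines stay close to the bound.

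The spread between arrays was about as large as many of these differences. The median pooled within-group SD of the members was 0.28 at 4 h and also at 12 h, and the decrease was larger than the member's own SD for 39 members at 4 h and 53 at 12 h. At 4 h all 3 TCDD arrays lay below all 3 vehicle arrays for 14 members (3.86% of all 8781 probe sets did so). At 12 h this held for 23 members (8.68% of all), and at both times for 8 (0.649% of all). At 1 h 2 members lay wholly below (7.55% of all) and 4 wholly above (12.2%), and at 2 h none did either (9.74% and 6.58%). The rule used these differences, so nothing is read from these counts. The 8 were pcna, anxa2a, slc7a3a, magi1a, dhdh.2, tagln2 and the unnamed probe sets Dr.11316.2.A1_at and Dr.8650.1.S1_at. By a limma fit across all 15502 probe sets, with an adjusted p under 0.05 as the threshold, 1 member, prim1, was called lower at 4 h (0.142% of all probe sets were called lower) and 3 at 12 h, anxa2a, tagln2 and the unnamed Dr.10630.1.A1_at (0.368% of all). These comparisons also chose the members. No member was called at 1 h (0.116% of all called in either direction) or at 2 h (0.0903%), times at which the rule kept large differences out. Calls in either direction made up 0.464% of all at 4 h and 0.755% at 12 h.

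**Figure D2:**
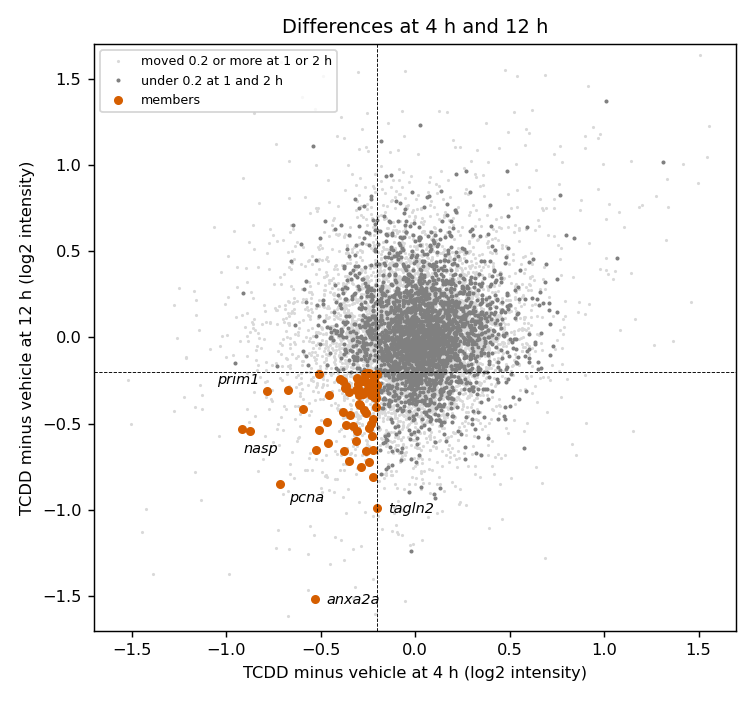
TCDD minus vehicle in log2 intensity at 4 h (horizontal axis) against 12 h (vertical axis) for the 8781 probe sets with a mean log2 level of at least 4, of which 30 lie outside the axes. Orange points are the 72 members, dark grey points the 2755 other probe sets that stayed within 0.2 at 1 h and 2 h, light grey points those that did not, and dashed lines mark -0.2. The members fill the lower left corner, and most lie near the dashed lines, at the edge of the main cloud.

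Just inside the bound, the larger of the late differences was -0.20 for dlx6a, for drap1 and for tagln2, the last in rank. Just outside it were Dr.4887.1.A1_at, with -0.20 at 4 h and -0.31 at 12 h, Dr.16347.1.A1_at, with -0.28 and -0.20, and got2b, with -0.34 and -0.20, each short of the bound by less than the rounding. Without the early condition, 450 of the 8781 probe sets (5.12%) were lower by at least 0.2 at both late times. Of these, 258 were also lower by 0.2 or more at 1 h or 2 h, and 191 were higher by as much at one of these times. The mirror rule for rises was met by 119 probe sets (1.36%).

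Of the 72 members, 50 carry 1 gene symbol, each a different gene, and 22 carry none. Only 10 were on any of 20 gene lists for tissues and pathways. The values given for these lists cover their probe sets with a mean log2 level of at least 4. The list of cell cycle and DNA replication genes held 5 members, pcna, prim1, pola1, rfc5 and anp32e. nasp, xrcc1 and rnaseh2c, which are on no list, are described beside them for their known roles.

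pcna, the sliding clamp of replication, ranked first. At 4 h its log2 level was 11.30, 10.69 and 11.002 on the vehicle arrays and 9.99, 10.36 and 10.49 on the TCDD arrays. At 12 h it was 9.63, 9.93 and 9.0 against 8.74, 8.67 and 8.60. Every TCDD array lay below every vehicle array at both times, and the mean was 1.64-fold lower at 4 h and 1.8-fold lower at 12 h. At 1 h and 2 h the differences were 0.12 and -0.01.

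prim1 encodes the catalytic subunit of primase, which starts each new DNA strand with an RNA primer. At 4 h it stood at 6.46, 6.07 and 6.31 with vehicle and at 5.21, 5.72 and 5.55 with TCDD, without overlap and 1.72-fold lower. At 12 h the levels were 5.01, 5.64 and 4.95 against 4.89, 4.98 and 4.80, so the difference was -0.31 and the groups overlapped. pola1 encodes the catalytic subunit of DNA polymerase alpha, the partner of primase. Its level at 4 h was 4.72, 5.05 and 5.38 with vehicle and 4.89, 4.52 and 3.73 with TCDD. The groups overlapped, and the difference of -0.67 rested largely on the lowest TCDD array. At 12 h pola1 stood at 4.11, 4.15 and 3.89 against 3.84, 3.89 and 3.52, close to the level minimum of 4, with a difference of -0.30.

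rfc5, a subunit of the complex that loads the PCNA clamp, was lower by 0.26 and 0.31 on the log2 scale at 4 h and 12 h, and its groups overlapped at both times. anp32e, known in mammals as a chaperone that removes the histone variant H2A.Z, differed by -0.27 and -0.24, again with overlap. A further probe set of anp32e gave -0.57 and -0.16. rnaseh2c, a subunit of the nuclease that removes RNA from DNA, differed by -0.23 and -0.30. xrcc1, a scaffold of DNA strand break repair, differed by -0.29 and -0.39, with overlap at both times.

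nasp, a histone chaperone, had one of the lowest differences at 4 h. It stood at 7.62, 7.38 and 7.55 with vehicle and at 6.64, 6.47 and 6.82 with TCDD, a 1.83-fold lower mean with well separated groups. At 12 h its levels were 5.42, 6.05 and 4.89 against 4.80, 5.0 and 4.93. The third vehicle array then lay inside the TCDD range, and the difference was -0.54. Only the unnamed Dr.7955.1.A1_at was lower at 4 h, with a difference of -0.91, and it stood at -0.53 at 12 h.

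**Figure D3:**
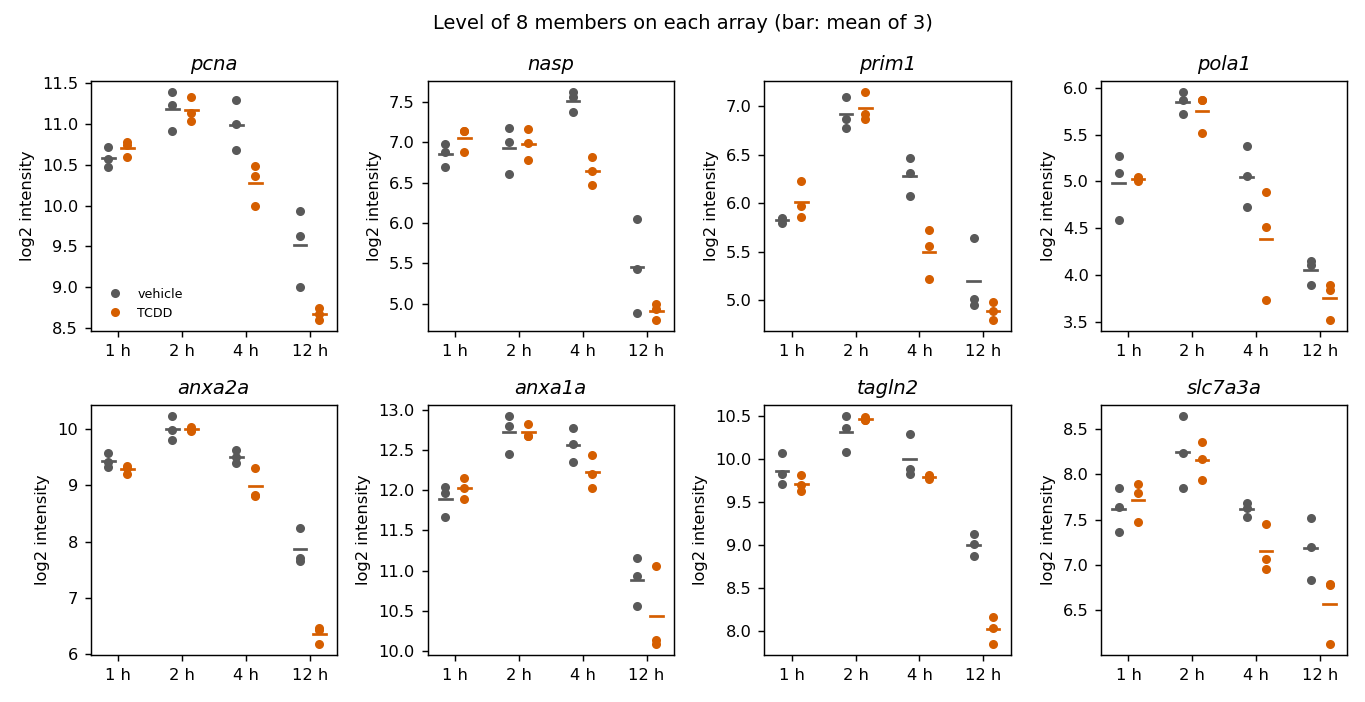
Log2 intensity (vertical axis) of 8 members on each of the 24 arrays, by time (horizontal axis), with vehicle in grey, TCDD in orange, 1 point per array and a bar for the mean of 3. pcna, anxa2a, tagln2 and slc7a3a separate without overlap at 4 h and 12 h. nasp and prim1 separate at 4 h only, and anxa1a overlaps at both times. pola1 separates at 12 h only, by less than the rounding of the levels given in the text.

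The list of cell cycle and DNA replication genes is called the replication list here, although it also holds genes of mitosis. Of these, plk1, cdc20 and aurka stood at 0.23, 0.33 and 0.24 at 4 h, and birc5a and mad2l1 at -0.16 and -0.25. The list's genes other than the members give measurements that did not choose the members, although they come from the same arrays. The list itself was chosen with earlier results of these data known, so it is not independent of them. The list names 78 genes, 68 of them on the array, and 71 of its probe sets had a mean log2 level of at least 4. Leaving out the 5 members, 66 remained. At 4 h 50 of these 66 were below zero, with a median of -0.33, and at 12 h 60 were below zero, with a median of -0.37. Over all 8781 probe sets 49.8% were below zero at 4 h and 51.6% at 12 h. At 4 h other lists had shares below zero as high. Oxidative phosphorylation had 45 of 51 probe sets and translation 46 of 59, but with medians of -0.13 and -0.05. The neural and glial list had 36 of 42 and a median of -0.37, lower than that of the 66. None of the probe sets of these lists was called lower at 4 h. At 12 h the medians of the retina and lens and skeletal muscle lists, -0.41 and -0.39, were also lower than that of the 66, with 0 and 1 probe sets called lower. The limma fit called 6 of the 66 lower at 4 h, where 20 of the 8781 probe sets at that level were called lower (0.228%), and 4 lower at 12 h, where 54 were (0.615%). It called none of the 66 higher at 4 h or at 12 h, where 44 and 57 of the 8781 were called higher. Over all 15502 probe sets the shares called higher were 0.323% and 0.387%. None of the 66 was called in either direction at 1 h or 2 h.

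Among the genes called at 4 h, gins2, a subunit of the GINS complex, fell by 1.26 in log2 intensity (SE 0.20, adjusted p = 0.00467 by limma), and its difference at 12 h was 0.00. The helicase subunits mcm2, mcm3 and mcm5 fell by 1.42, 1.13 and 1.14, with adjusted p of 0.0450, 0.00986 and 0.0283. dnmt1, which copies methylation onto new DNA, fell by 1.27 (adjusted p = 0.0347). At 12 h the differences of mcm2, mcm3, mcm5 and dnmt1 were -0.997, -0.41, -0.28 and -0.43, and none passed the threshold. ccnd1, the cyclin of G1 phase, has 2 probe sets. One fell by 0.83 at 4 h (adjusted p = 0.0302) and by 0.78 at 12 h (adjusted p = 0.0351). The other stood at -0.70 at 4 h, short of the threshold, and fell by 0.91 at 12 h (adjusted p = 0.0337). At 2 h these probe sets already stood at -0.67 and -0.88. At that time mcm2, mcm3, mcm5, dnmt1 and gins2 stood at -0.54, -0.59, -0.32, -0.52 and -0.14. None of these 2 h differences passed the threshold. At 1 h the ccnd1 probe sets stood at -0.20 and -0.29. The values of mcm2, mcm3, mcm5, dnmt1 and gins2 at 1 h were 0.50, 0.05, 0.15, 0.30 and 0.21. These differences do not settle whether the lower level of these genes began before 4 h.

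At 12 h the other genes called act in mitosis. smc4, a condensin subunit that compacts chromosomes, fell by 1.2 (SE 0.14, adjusted p = 0.000149), after a difference of -0.03 at 4 h. kifc1, a spindle motor, fell by 0.93 (adjusted p = 0.0291), after 0.10 at 4 h. Whether the effect on any of these genes differed between 4 h and 12 h was not tested. The calls depend on the fit: out of 17 or 18 refits with other settings or without an array or replicate number, gins2 lost its call in 3 and smc4 in 2, while each of the others lost it in 7 to 11. No such count is given for the call of the member prim1.

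The early condition of the rule kept out 25 probe sets of the replication list that met the late condition. The other non-members on the list did not meet the late condition. At 1 h 50 of the list's 71 probe sets (70.4%) were higher by at least 0.2, against 32.3% of all probe sets, and the list's median was 0.36. None of these early differences passed the limma threshold. Of the 66 non-members, 25 were lower by at least 0.2 at both late times. With the members these were 30 of the 71 (42.3%), against 5.12% of all probe sets. The 5 members met this condition by the rule, and the list was chosen with earlier results of these data known, so this share is a description. Of the 25 that are no members, 18 had been higher by 0.2 or more at 1 h and 13 lower by as much at 1 h or 2 h. The 5 members are those of the 30 whose differences at 1 h and 2 h both stayed under 0.2. The mean over the 66 other probe sets was 7.30, 7.07 and 7.03 on the vehicle arrays of 4 h and 6.55, 7.05 and 6.76 on the TCDD arrays, so TCDD replicate 2 reached into the vehicle range. At 12 h the list means were 5.75, 6.13 and 5.66 with vehicle and 5.52, 5.46 and 5.45 with TCDD, without overlap.

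**Figure D4:**
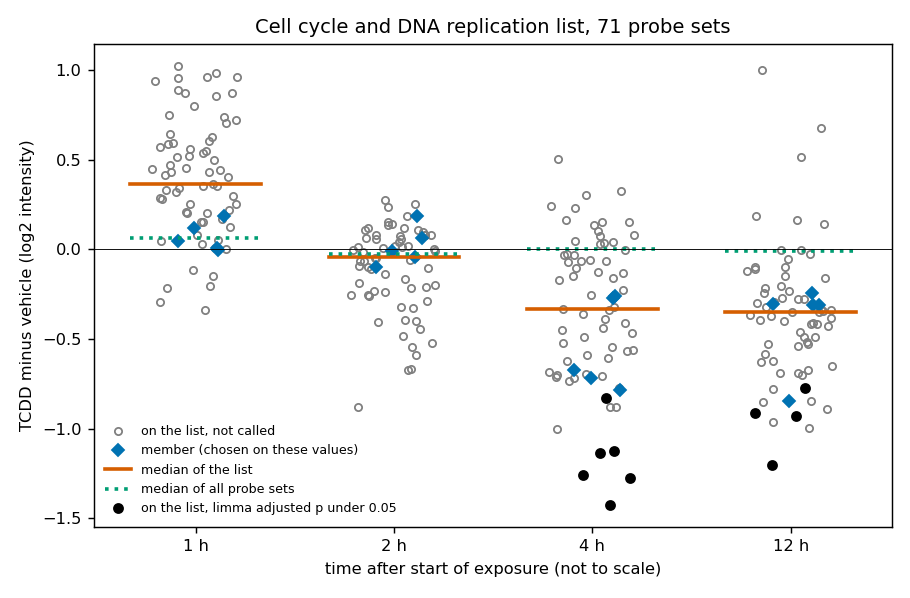
TCDD minus vehicle in log2 intensity (vertical axis) at the 4 times (horizontal axis) for the 71 probe sets of the cell cycle and DNA replication list with a mean log2 level of at least 4. Blue diamonds are the 5 members, black points the other probe sets with a limma adjusted p under 0.05, open circles the rest, the orange bar the list's median and the green dotted bar that of all probe sets. The list lies mostly above zero at 1 h and mostly below zero at 4 h and 12 h, with called genes at the late times only.

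The tissue is a mixture, and in bulk RNA fewer cells of a type and less RNA per cell cannot be told apart. Among the lists of other cell types, neural and glial genes also lay lower at 4 h: 36 of their 42 probe sets were below zero, with a median of -0.37, and array means of 7.36 to 7.95 with vehicle and 7.22 to 7.53 with TCDD. At 12 h their median was 0.13. The 11 retina and lens probe sets had medians of -0.10 at 4 h and -0.41 at 12 h, and their array means at 12 h were 3.49 to 5.13 with vehicle and 3.52 to 3.85 with TCDD. The 48 skeletal muscle probe sets had medians of -0.07 and -0.39, with array means at 12 h of 7.38 to 7.50 with vehicle and 6.88 to 7.40 with TCDD. The 20 cartilage probe sets had medians of 0.05 and -0.09. None of these 4 lists holds a member. Their part in the members' differences was not tested.

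The members described next were grouped by hand for known roles at membranes or in the actin skeleton. Of these, only anxa1a is on a gene list. anxa2a encodes annexin A2, which binds phospholipid membranes in the presence of calcium. At 4 h it stood at 9.51, 9.40 and 9.63 with vehicle and at 9.31, 8.84 and 8.81 with TCDD. At 12 h it was 8.24, 7.66 and 7.70 against 6.42, 6.45 and 6.18. The groups were apart at both times. The decrease was 1.44-fold at 4 h and 2.86-fold at 12 h, the largest of any member at 12 h. Whether it differed between the times was not tested. Its early differences were -0.15 and -0.01.

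anxa1a, another annexin and a member of the skin and mucosa list, stood at 4 h at 12.77, 12.35 and 12.58 with vehicle and at 12.20, 12.03 and 12.44 with TCDD, and at 12 h at 11.15, 10.56 and 10.93 against 10.14, 10.09 and 11.06. The differences were -0.34 and -0.45, and at each time 1 TCDD array lay within the vehicle range. The 48 probe sets of the skin and mucosa list had medians of -0.10 at 4 h and -0.01 at 12 h. Their array means were 10.02 to 10.25 with vehicle and 10.03 to 10.07 with TCDD at 4 h, and 8.56 to 8.71 against 8.46 to 8.94 at 12 h. anxa1a was the only member among them.

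tagln2 encodes transgelin 2, an actin-binding protein, and was the last member by rank. At 4 h it stood at 9.82, 9.88 and 10.29 with vehicle and at 9.80, 9.81 and 9.77 with TCDD, with the lowest vehicle array only just above the highest TCDD array. At 12 h it stood at 9.13, 8.87 and 9.02 against 8.04, 7.86 and 8.17, well apart and 1.98-fold lower. Its place among changes that began at 4 h therefore rests on a difference of -0.20, set mainly by vehicle replicate 3.

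cavin2b, a coat protein of caveolae, differed by -0.51 and -0.54, and baiap2l1a, which links membrane curvature to actin, by -0.59 and -0.42. Both overlapped between groups at both times. A further probe set of cavin2b, at a higher mean level of 9.74, gave 0.03 at 4 h and -0.29 at 12 h. magi1a, a scaffold of cell junctions, was lower by 0.37 at 4 h and 0.29 at 12 h, without overlap at either time.

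Patterning genes of the jaw were represented by hand2, dlx6a and cyp26b1, the 3 members among 63 probe sets on the patterning list, whose medians were -0.05 at 4 h and -0.02 at 12 h. hand2, a transcription factor of the ventral pharyngeal arches and the heart, stood at 7.83, 7.63 and 6.87 with vehicle and at 7.27, 7.45 and 6.68 with TCDD at 4 h. At 12 h it stood at 6.57, 6.52 and 6.76 against 6.15, 5.78 and 6.30. The groups overlapped at 4 h and were apart at 12 h, with differences of -0.31 and -0.54. dlx6a, a homeobox gene of the same arches, differed by only -0.20 and -0.28, with overlap, and stood at 0.055 at 4 h without replicate number 1.

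cyp26b1 encodes an enzyme that degrades retinoic acid and shapes cartilage and bone growth. It stood at 8.35, 8.47 and 8.58 with vehicle and at 8.30, 8.18 and 7.97 with TCDD at 4 h, just without overlap. At 12 h the levels were 8.0, 7.84 and 7.93 against 7.29, 7.96 and 6.73, so 1 TCDD array lay within the vehicle range, and the difference was -0.60. Another cyp26b1 probe set of similar level gave -0.31 at 2 h, -0.10 at 4 h and -0.77 at 12 h, so its 4 h difference was short of the bound. bmpr1aa, a type I receptor for bone morphogenetic proteins, differed by -0.21 and -0.26, and a further probe set of it by -0.19 and -0.28. Without vehicle replicate 1 the member stood at 0.10 at 4 h, and without TCDD replicate 3 at 0.025.

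slc7a3a, a transporter of cationic amino acids, stood at 7.68, 7.53 and 7.63 with vehicle and at 7.06, 7.45 and 6.95 with TCDD at 4 h. At 12 h it stood at 7.20, 7.51 and 6.83 against 6.80, 6.78 and 6.14. The groups were apart at both times, by a narrow margin at 12 h, and the means were 1.37-fold and 1.53-fold lower. fah, the last enzyme of tyrosine breakdown, differed by -0.29 at 4 h and -0.75 at 12 h. chac1, which breaks down glutathione, differed by -0.25 and -0.72, and its 4 h difference was 0.077 without TCDD replicate 1. fxyd6l, of the family that modulates the sodium pump, differed by -0.26 and -0.66. For fah, chac1 and fxyd6l the groups overlapped at 4 h and were apart at 12 h.

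sucla2, a subunit of a citric acid cycle enzyme, differed by -0.35 and -0.31, but a further probe set of it gave 0.10 and 0.07. irg1l, a relative of the immune-responsive gene Irg1 of mammals, stood at 7.97, 9.24 and 8.83 with vehicle and at 7.92, 9.91 and 6.62 with TCDD at 4 h, and at 6.44, 6.0 and 6.15 against 5.41, 6.38 and 4.86 at 12 h. The TCDD arrays of 4 h spanned the whole vehicle range, and without TCDD replicate 3 the 4 h difference was 0.24. gadd45ba, a stress-response gene that many growth signals induce, differed by -0.30 at both times with overlapping groups.

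smarca1, an ATPase that slides nucleosomes, differed by -0.22 at 4 h and -0.81 at 12 h. nifk, a nucleolar protein known in mammals as a partner of Ki-67, had the larger difference at 4 h, with -0.51 against -0.21. aaas, a protein of the nuclear pore, differed by -0.36 and -0.28. eif3d, a subunit of a translation initiation factor, differed by -0.28 and -0.33, but by 0.0077 at 4 h without replicate number 1 and by 0.051 at 12 h without replicate number 2. The differences were, for rrbp1b, a ribosome-binding protein of the endoplasmic reticulum, -0.38 and -0.43, and for drap1, a corepressor of transcription, -0.20 and -0.21. Without TCDD replicate 2 drap1 stood at 0.12 at 12 h.

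Other probe sets of the same genes offer a check within these arrays. For 11 member genes the array holds 16 further probe sets, of which 7 reached the mean log2 level of 4. At 4 h 5 of the 7 were below zero, at 12 h 4 were, and 3 were below zero at both times. None of the 7 was lower by at least 0.2 at both. Probe sets of si:ch211-132d3.4 disagreed most: the member differed by -0.40 and -0.24, and the others by -0.51 and 0.46 and by -0.92 and 0.13. pcna, prim1, nasp, anxa2a and tagln2 had no further probe set.

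A replicate number left out of the choice gives values the choice did not use. The rule was applied to the arrays of 2 replicate numbers, and its first 80 probe sets were kept. For these, the single TCDD array of the other number was compared with the single vehicle array of that number. Only 18, 21 and 20 of the 80 were also members, with replicate 1, 2 and 3 left out. The shares and medians that follow thus cover mostly other probe sets. They describe the rule and are no check of the members themselves. With replicate 1, 2 and 3 left out, 37.5%, 66.25% and 30.0% of the 80 were below zero at 4 h, while 56.01%, 52.9% and 41.6% of all probe sets were. At 12 h 70.0%, 68.75% and 63.75% of the 80 were below zero, against 54.2%, 49.0% and 52.7% of all. At 4 h the left-out arrays thus followed the direction of the choice for replicate 2 and went against it for replicates 1 and 3, with medians of 0.18, -0.13 and 0.19. At 12 h they followed it for every number, with medians of -0.16, -0.23 and -0.23, about as large as the bound and smaller than the medians of -0.38 to -0.33 on the arrays used for the choice. Below zero at both 4 h and 12 h were 28.75%, 47.5% and 16.25% of the 80, against 32.3%, 27.3% and 18.4% of all. The share of the 80 was thus higher only with replicate 2 left out. Each comparison has 1 array per group, so it has no test.

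**Figure D5:**
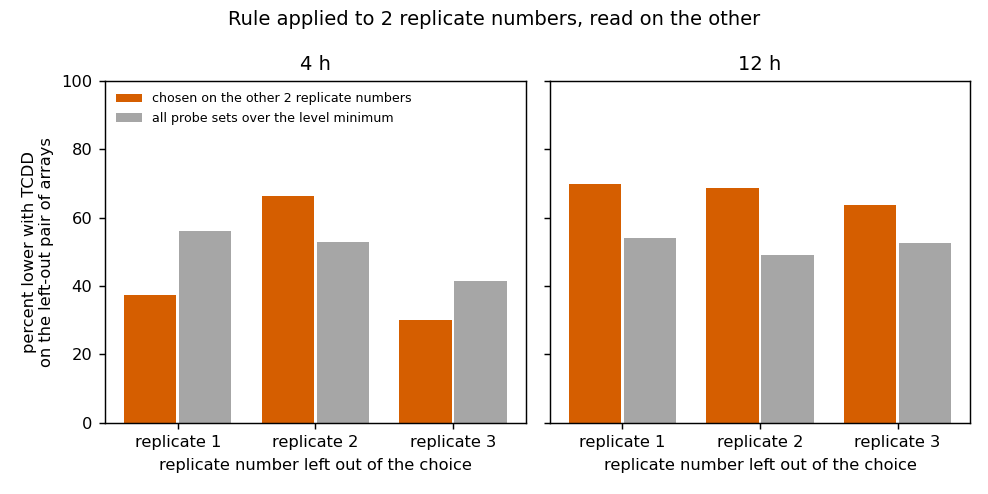
Percent of probe sets lower with TCDD (vertical axis) on the left-out pair of arrays at 4 h and at 12 h, for each replicate number left out (horizontal axis). Orange bars are the 80 probe sets chosen on the other 2 numbers and grey bars all probe sets over the level minimum. Most of the 80 are not members. At 4 h the orange bars exceed the grey only for replicate 2, and at 12 h for all 3.

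Only pcna and anxa2a met the rule with every replicate number left out. Between the TCDD and vehicle arrays of replicate 1, 2 and 3, pcna differed by -1.31, -0.33 and -0.51 at 4 h and by -0.88, -1.26 and -0.40 at 12 h. anxa2a differed by -0.20, -0.56 and -0.82 at 4 h and by -1.81, -1.20 and -1.52 at 12 h. Being picked by meeting the rule in every case, both genes were chosen on these values, which are a description. When single arrays were left out in turn, pcna and the unnamed Dr.12267.1.A1_at met the rule in all 24 cases, 37 members did so in at least 20, and the least steady in 13. Of the 72, 28 no longer met the rule whichever of the 3 replicate numbers was left out, and tagln2 was among these. prim1 met it in 1 of the 3 cases.

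With no array left out, the members' median on the TCDD arrays of 12 h, each against the vehicle mean, was -0.35, -0.34 and -0.40 for replicate 1, 2 and 3, values that the rule used. The part of the different control signal of replicate 3 in them was not tested, and with that signal as a covariate 42 of the 72 met the rule again. At 4 h these medians were -0.34, -0.31 and -0.23.

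The genes whose pattern was most like that of a member were found by the correlation of the 8 group means, after the mean of each time was taken off. These values share arrays, and with so few means very high correlations are easily reached. With the mean of each time taken off, only the TCDD minus vehicle differences at the 4 times are compared. The rule chose the members on these differences, so high correlations between members follow largely from the rule and nothing is read from them. The nearest to pcna was slc7a3a, also a member (r = 0.993). The nearest to prim1 was uck2b (r = 0.998), which salvages pyrimidine nucleosides. It differed by -0.79 at 4 h and -0.35 at 12 h and was no member. The nearest to anxa2a was phlda3 (r = 0.998), with -0.14 and -0.40. The nearest to anxa1a was xrcc1 (r = 0.999) and the nearest to irg1l was mvp (r = 0.999), the major vault protein, both members.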

How the data were processed

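The deposited table gives, per probe set and array, an intensity on a linear scale, as the values show. RMA and GCRMA are named in the submitters' processing notes, without role, order or version; whether the authors normalized each time separately is not stated. Log2 was taken with no offset. Arrays were grouped by treatment and time as their labels give them. The 115 control probe sets were left out.

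Members were found by the rule given in the opening (Python 3.11.15, pandas 2.3.3). limma 3.58.1 in R 4.3.3 was fitted with a mean for each of the 8 groups, all 24 arrays together, which leaves 16 residual degrees of freedom, to 15502 probe sets with eBayes and Benjamini-Hochberg adjustment, and was tested on simulated data. Its p-values measure the spread between pools of jaws. This spread includes any difference between the independent experiments, for which the main fit has no term.

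Gene symbols come from GEO's platform annotation, which can be old: 10795 probe sets have 1 symbol, 135 several and 4572 none. By Entrez ID 10711 matched RefSeq genes (assembly GRCz12tu), and 1 symbol was updated. No sequences were used. Gene positions served only to look for neighbouring member genes, with 0 adjacent pairs among the 50 genes with a position. The members and the 20 gene lists were chosen with earlier results of these data known.

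The genes named are the first 20 members by rank, further members on a gene list, the 5 of highest level, and the 3 on either side of the bound. Others (among them xrcc1, rnaseh2c, magi1a, bmpr1aa, fah, chac1, smarca1, nifk, aaas and the few called or separated probe sets) were chosen after their values were seen. Alternatives were joint quantile normalization, median subtraction, an offset of 16, medians of 3 arrays, other level and difference bounds, a replicate block, eBayes with a trend and robust settings, the 6 arrays of a time alone, and omission of each array or replicate number. The dap control as a covariate for the members and the comparisons was among these, and the refits of single replication genes and the omission of replicate numbers for single members were added after seeing the data.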

Additional observations from a re-analysis of the deposited data

Results flagged for a closer look

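In 3 members the TCDD arrays were all higher than the highest vehicle array at 1 h and all lower than the lowest one at a later time. The early differences are just under the bound of the rule, and whether the effects differ between the times was not tested. prim1, the primase subunit, differed by 0.19 at 1 h and -0.78 at 4 h. nifk, the nucleolar protein, differed by 0.20 at 1 h and -0.51 at 4 h. aaas, the nuclear pore protein, differed by 0.19 at 1 h and -0.28 at 12 h. At 1 h 12.2% of the 8781 probe sets had all TCDD arrays above all vehicle arrays. All TCDD arrays lay below all vehicle arrays for 3.86% of them at 4 h and 8.68% at 12 h. The share with both was not computed, so nothing is read from the count of 3.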

How the results depend on the processing

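The membership depends on small settings. The rule was met by 72 probe sets as given, by 47 with an offset of 16 (40 of the 72 among them), by 113 with medians of 3 arrays (28), by 46 with a level minimum of 6 (46), by 23 with a late decrease of at least 0.3 (23) and by 18 with early differences under 0.1 (18). With the dap covariate 42 of the 72 met it again. Leaving out arrays or replicate numbers gave 54 to 126 probe sets, 126 without TCDD 4 h replicate 3 and 114 without vehicle 4 h replicate 3. Of the 72, 19 to 66 met the rule again, 19, 21 and 20 of them without replicate numbers 1, 2 and 3 and 47 without vehicle 4 h replicate 1. The 12 h median of the 72 then ran from -0.43, without vehicle 12 h replicate 3, to -0.31.

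For 43 members named in the text, 1032 values were computed with joint quantile normalization, an offset of 16, the dap covariate, or without an array or replicate number. Direction turned in 18 of them, in 9 members, each time with arrays left out. With arrays or replicate numbers left out, the 4 h difference ran from -0.75 to 0.040 for Dr.22471.1.A1_at, -0.95 to 0.19 for Dr.19364.1.S1_at, -0.67 to 0.26 for chac1, -0.50 to 0.055 for dlx6a, -0.43 to 0.0077 for eif3d and -0.85 to 0.21 for bmpr1aa, each highest without replicate number 1 or its TCDD array, and from -1.41 to 0.31 for irg1l, highest without replicate number 3. The 12 h difference ran from -0.52 to 0.17 for drap1, -0.62 to 0.10 for wu:fi75a02, -0.67 to 0.051 for eif3d and -0.43 to 0.044 for bmpr1aa, each highest without replicate number 2. The omissions of replicate numbers for single members, and all settings for 14 of the 43, were added after seeing the data.

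limma called 18, 14, 72 and 117 probe sets at 1, 2, 4 and 12 h. With the 6 arrays of a time alone it called 0, 0, 7 and 19 (1413, 1274, 631 and 1092 at an unadjusted p under 0.05), a fit with fewer samples, and with an offset of 16 it called 65 at 12 h. Without single arrays or replicate numbers the counts ran from 0 to 206, 1 to 20, 16 to 77 and 25 to 119. The most at 1 h came without TCDD 1 h replicate 3, and the fewest came without replicate number 1 or 2 at 1 h, without number 1 at 2 and 4 h, and without number 3 at 12 h. The replication list without members had 39 to 63 of 66 probe sets below zero at 4 h and 55 to 62 at 12 h when arrays were left out. The causes were not tested.

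The labels do not say whether arrays of the same replicate number come from the same experiment. The correlations of same-numbered arrays' deviations from their group means ran from -0.46 to 0.25. Those of differently numbered arrays ran from -0.25 to 0.49, so these values cannot settle whether the numbers pair the arrays. A replicate block gave 18, 17, 62 and 123 calls, and the members' means, and so the 72, are the same with it.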
